A study of Aspergillus nidulans and Aspergillus wentii with 48 samples.

Results

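The transcriptional response of *Aspergillus wentii* CBS141173 to NaCl was read from 6 RNA-seq libraries of a series of 48. Libraries were chosen by their titles, 3 from cultures treated with NaCl alone and 3 from untreated cultures, and all 12659 *A. wentii* genes of the deposited table were considered, out of 23647 genes of both species in the series. CBS141173 is a wild-type osmophilic mould that lacks *gfdB*, and it serves as the reference strain of the study. Both groups were mycelium grown for 65 h in Barratt's minimal broth and then moved to fresh broth, with 1 M NaCl for the treated cultures and with no added osmolyte for the untreated ones. RNA was taken 0.5 h later. The sample labels and the study's methods give 1 M NaCl and 2 M sorbitol, while the series record gives 2 M NaCl and 1 M sorbitol. The same strain was also treated with sorbitol and with NaCl + sorbitol. The strain 'c gfdB, which is CBS141173 carrying 1 copy of *gfdB* of *Aspergillus nidulans* under its own promoter with a hygromycin resistance marker, was given the same 4 conditions. The comparison asks which genes of the osmophilic strain changed within the first hour in salt.

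In aspergilli high osmolarity is sensed by a phosphorelay, in which histidine kinases pass a phosphate through the transfer protein YpdA to the response regulators SskA and SrrA. SskA controls the high osmolarity glycerol (HOG) cascade, which ends in the MAP kinase HogA and acts through transcription factors such as AtfA. Cells then gather compatible solutes, chiefly glycerol, which is made by glycerol 3-phosphate dehydrogenase and a phosphatase and can be held or taken up by proton symporters, and they also use mannitol and trehalose.

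Library totals were 17279683, 26828279 and 19871540 reads under NaCl, and 32274107, 22645836 and 22427737 reads in untreated cultures. Across the 11094 genes with enough reads to be tested, libraries of a group correlated at 0.965 to 0.992 under NaCl and at 0.973 to 0.990 in untreated cultures (Pearson's r of log2 CPM, across genes). Between the groups r was 0.857 to 0.914. A principal component holding 81.0% of the variance of the 6 libraries separated the groups, with scores of 54.2 to 76.9 under NaCl and -80.0 to -58.2 in untreated cultures. NaCl replicate 1 lay apart from the other NaCl libraries on the next component (8.3% of the variance), at -44.3 against 27.6 and 11.1. The 3 hyphal markers were present in all 6 libraries. Gamma actin (ASPWEDRAFT_168397) had 918 to 1066 RPKM (reads per kilobase of gene, scaled to the library total) under NaCl and 1400 to 1630 RPKM in untreated cultures. Chitin synthase (ASPWEDRAFT_189665) had 47.5 to 88.8 RPKM under NaCl and 184.3 to 232.2 RPKM in untreated cultures. The proton ATPase *pmaA* (ASPWEDRAFT_173501) had 672.8 to 751.1 RPKM under NaCl and 470.0 to 752.7 RPKM in untreated cultures. The orthologue of *catA* (ASPWEDRAFT_48635), which in *A. nidulans* encodes the catalase of conidia, had 0.899 to 1.21 RPKM under NaCl and 0.358 to 0.772 RPKM in untreated cultures. In bulk mycelium, fewer cells of a kind and less RNA per cell cannot be told apart.

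NaCl changed 3876 of the 11094 genes tested (34.9%). A gene was called when edgeR's quasi-likelihood test gave an adjusted p under 0.05 and a change of more than 2-fold. By this rule 2168 genes were higher under NaCl (19.5% of genes tested) and 1708 were lower (15.4%). At any fold the test called 2766 genes higher (24.9%) and 2999 lower (27%). Large rises were more common than large falls, since 989 called genes rose (8.91%) and 381 fell (3.43%) by more than 2 log2 units, while 70 rose (0.631%) and 9 fell (0.0811%) by more than 5. The 3 NaCl libraries lay wholly above the 3 untreated libraries in 3421 genes (30.8%) and wholly below them in 3450 genes (31.1%). Among the called genes, 2109 of the higher (19% of genes tested) and 1650 of the lower ones (14.9%) had groups that did not overlap. Leaving out the 2 *A. wentii* groups whose libraries spread most, an alternative chosen after seeing the data, gave 2342 higher and 1601 lower genes. Without NaCl replicate 1 the counts were 2210 and 1876.

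Rises were most frequent among genes with few transcripts. Genes were split into 5 equal classes by mean level over the 24 *A. wentii* libraries. In the lowest class (median 0.99 RPKM), 33.5% were called higher and 11.4% lower. In the highest class (median 139 RPKM), 12.6% were higher and 13.3% lower. A gene with few reads could pass the filter through the group in which it was high, so the lowest class is not a sample of all weakly expressed genes. By length, 22.1% of the shortest class (median 588 bases) were higher and 15.3% lower, against 13.7% higher and 16.6% lower in the longest class (median 2820 bases). The plot of shares by level and length shows that the share called higher fell steeply over level, and that the share called lower was between 11.4% and 17.8% in all 5 level classes.

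**Figure D1:**
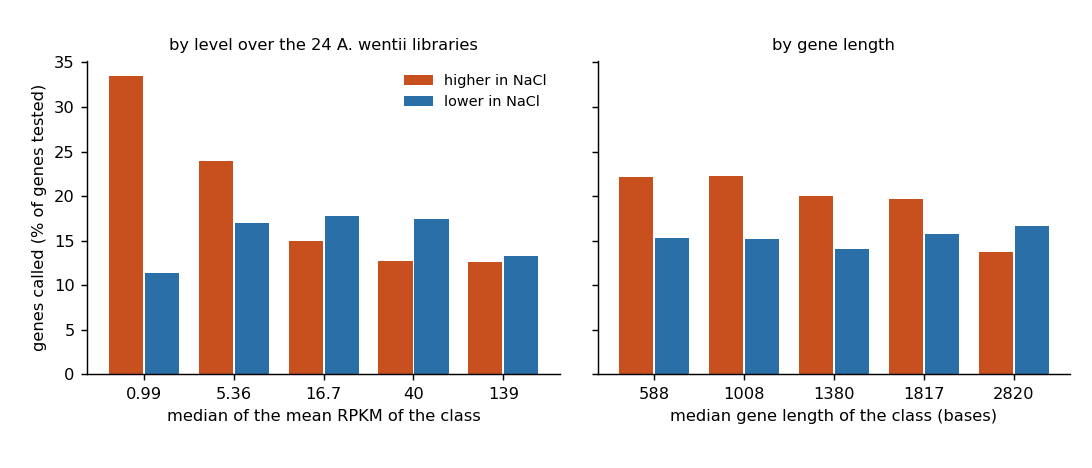
Share of tested genes called higher (orange) or lower (blue) under NaCl than in untreated CBS141173, in percent, by class of mean level (left, RPKM) and of gene length (right, bases). The share called higher is 33.5% in the lowest class by level and 12.6% in the highest.

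The study lists *A. wentii* orthologues of *A. nidulans* genes for the osmotic and oxidative stress responses and for glycerol, and the genes of its RT-qPCR assays, which were picked within the same study and are no independent evidence of a direction. These lists hold 118 genes, of which all but 11 passed the filter. Under NaCl 31 of those tested were called higher (29%) and 6 lower (5.61%), against 19.5% and 15.4% of all genes. The median log2 fold change was 0.14 over the members and -0.06 over all genes. The rises lay chiefly in glycerol transport (8 of 13 tested, median 1.72) and glycerol synthesis (8 of 15, median 1.42). HOG and phosphorelay genes had 1 member higher and 1 lower of 11, and trehalose genes had 2 of 4 lower.

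**Figure D2:**
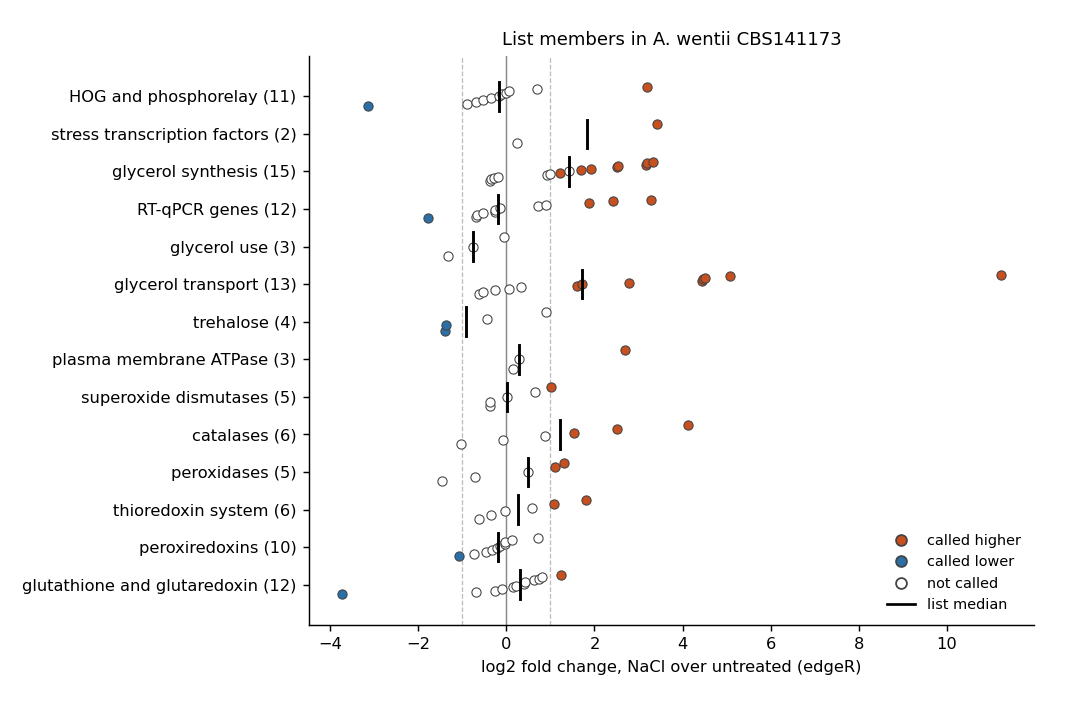
Log2 fold change (NaCl over untreated, edgeR) of every tested member of each list, with the number tested in brackets. Filled points were called higher (orange) or lower (blue), open points were not called, black bars are list medians and dashed lines mark 2-fold. Glycerol synthesis and glycerol transport hold 16 of the 31 members called higher.

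Signalling genes behaved unequally. The transfer protein of the phosphorelay rose, a response regulator fell, and the kinases of the HOG cascade were not called. The *ypdA* orthologue (ASPWEDRAFT_99233) had 128.3, 190.3 and 183.2 RPKM under NaCl, against 16.8, 21 and 15.3 RPKM in untreated cultures. Its log2 fold change was 3.20 ± 0.27 (SE, adjusted p = 1.75e-08). The *srrA* orthologue (ASPWEDRAFT_202686), a response regulator, had 14.2, 4.5 and 4.57 RPKM under NaCl, against 65.1, 47.9 and 85.8 RPKM in untreated cultures, a log2 fold change of -3.15 ± 0.43 (adjusted p = 5.77e-06). Neither pair of groups overlapped, and NaCl replicate 1 was the highest of the treated libraries for *srrA*.

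The MAP kinase kinase *pbsA* (ASPWEDRAFT_51084) had 30.8, 22.1 and 23.2 RPKM under NaCl and 25.8, 24.1 and 29.1 RPKM in untreated cultures, with groups that overlapped (log2 fold change -0.10, adjusted p = 0.691). A *hogA* orthologue, ASPWEDRAFT_111477, had 170.1, 100.4 and 127.2 RPKM under NaCl and 176.2, 168.5 and 150.2 RPKM in untreated cultures (log2 fold change -0.36, adjusted p = 0.115). The other, ASPWEDRAFT_41261, had 117.7, 138.6 and 117.9 RPKM under NaCl and 74, 81.4 and 70 RPKM in untreated cultures. The libraries of this second MAP kinase did not overlap, but its log2 fold change of 0.69 ± 0.35 missed the threshold (adjusted p = 0.103). The response regulator *sskA* (ASPWEDRAFT_99575, -0.16), the phosphatase *ptpA* (ASPWEDRAFT_53169, 0.05) and the 4 *nikA* orthologues (-0.90 to 0.00), which encode histidine kinases, were not called either. The *nikA* orthologue ASPWEDRAFT_40694 was lower in every treated library but by less than 2-fold (-0.90 ± 0.20, adjusted p = 0.00109). It had 6.98, 6.18 and 6.24 RPKM under NaCl and 11.8, 10 and 13.3 RPKM in untreated cultures.

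Of the transcription factors, *atfA* rose about as much as *ypdA*. The *atfA* orthologue (ASPWEDRAFT_37015), a bZIP factor that acts with the HOG kinase, had 298.9, 308.2 and 353.3 RPKM under NaCl, against 26.4, 31.3 and 30 RPKM in untreated cultures (log2 fold change 3.41 ± 0.24, adjusted p = 1.83e-09). The zinc finger factor *msnA* (ASPWEDRAFT_101996) had 20.9, 29.1 and 19.5 RPKM under NaCl and 17.1, 17.3 and 22.7 RPKM in untreated cultures, which overlap (log2 fold change 0.25, adjusted p = 0.51).

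The transcript for the entry step of the glycerol 3-phosphate route rose, and no enzyme or glycerol level was measured here. The gene *gfdA* (ASPWEDRAFT_104967) encodes the NAD-dependent glycerol 3-phosphate dehydrogenase. It had 1160, 782.3 and 1056 RPKM under NaCl, against 88.9, 105.6 and 94.6 RPKM in untreated cultures. The ratio of the means was 10.4 and the log2 fold change 3.33 ± 0.31 (adjusted p = 5.49e-08). Of the 2 orthologues of *gpp2*, the glycerol 3-phosphate phosphatase of the next step, the more abundant one did not follow. ASPWEDRAFT_104044 had 42.7, 44.7 and 50.2 RPKM under NaCl and 51.5, 54.1 and 57.9 RPKM in untreated cultures (log2 fold change -0.29, adjusted p = 0.127). ASPWEDRAFT_673647 was called higher (1.92 ± 0.53, adjusted p = 0.00516), at 0.689, 3.38 and 3.89 RPKM under NaCl and 0.599, 0.657 and 0.796 RPKM in untreated cultures. NaCl replicate 1 of this gene lay within the untreated range, and its call was lost by an alternative test, limma on log2(RPKM + 1).

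**Figure D3:**
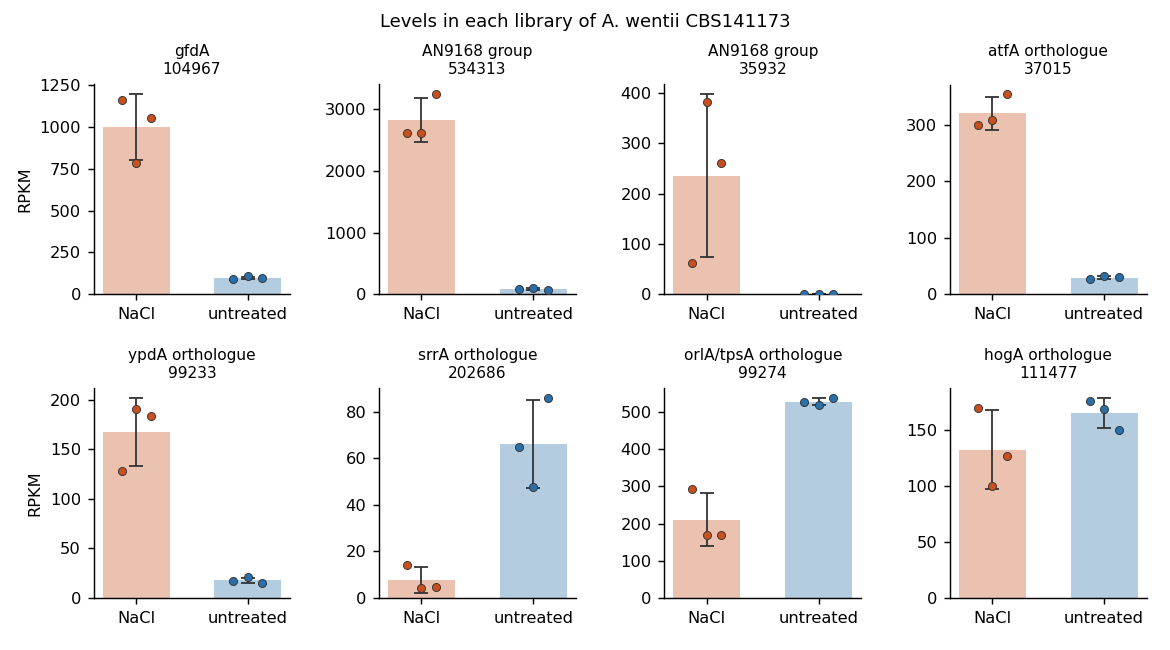
Level in RPKM of 8 genes in each of the 3 NaCl (left, orange) and 3 untreated (right, blue) libraries of CBS141173, with bars for the mean and whiskers for the SD (n = 3), each axis starting at 0. The groups overlap only for the *hogA* orthologue ASPWEDRAFT_111477.

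The orthologue group of the NADP-dependent glycerol dehydrogenases, enzymes of another route to glycerol in fungi, has 15 members, of which 12 were tested. Under NaCl 6 were called higher (50%, against 19.5% of all genes) and 0 lower (against 15.4%), with a median log2 fold change of 1.32. The most abundant member that rose, ASPWEDRAFT_101893, had 1568, 1143 and 1310 RPKM under NaCl, against 691.1, 594.4 and 384.1 RPKM in untreated cultures (1.22 ± 0.23, adjusted p = 0.000212). The largest relative changes were in members of low level. ASPWEDRAFT_104176 had 34.8, 20.9 and 28.4 RPKM under NaCl, against 3, 3.32 and 2.54 RPKM in untreated cultures (3.19 ± 0.32, adjusted p = 1.5e-07). ASPWEDRAFT_22248 had 2.93, 3.65 and 2.18 RPKM under NaCl, against 0.256, 0.273 and 0.414 RPKM in untreated cultures (3.17 ± 0.41, adjusted p = 3.24e-06).

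The other members called in this group were ASPWEDRAFT_108056, ASPWEDRAFT_69353 and ASPWEDRAFT_101237. ASPWEDRAFT_108056 had 57.7, 28.5 and 37.2 RPKM under NaCl, against 6.44, 6.15 and 8.5 RPKM in untreated cultures (log2 fold change 2.50). ASPWEDRAFT_101237 had 18.7, 32 and 26.5 RPKM under NaCl, against 8.49, 8.65 and 5.95 RPKM in untreated cultures (1.70). ASPWEDRAFT_69353 had 0.351, 1.88 and 1.37 RPKM under NaCl, against 0.125, 0.223 and 0.27 RPKM in untreated cultures (2.53), and its call was lost by limma. In the 6 called genes of this group every NaCl library was above every untreated library. The same held in 30.8% of all genes tested and in 2109 of the 2168 called higher, so it adds little to their calls. The 6 tested members that were not called had log2 fold changes of -0.38 to 1.42. How reads shared by near-identical paralogues were counted is not given in the sources used here, so values within this group are uncertain.

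Of the 3 glycerol use genes tested, none was called higher or lower. In 2 of them every NaCl library was below every untreated one, as in 31.1% of all genes tested. The glycerol kinase orthologue ASPWEDRAFT_47372 (*gcnA*) had 120.2, 90.7 and 112.6 RPKM under NaCl and 159.8 to 195.1 RPKM in the 3 untreated cultures, lower in every treated library but by less than 2-fold (-0.76, adjusted p = 0.00418). The other glycerol kinase orthologue, ASPWEDRAFT_748248, had 1.48, 0.808 and 0.966 RPKM under NaCl and 2.61, 1.76 and 3.53 RPKM in untreated cultures (-1.33 ± 0.59, adjusted p = 0.0642). It missed the threshold in the shared fit and passed it with only the groups of the comparison in the fit (-1.24). The FAD-dependent glycerol 3-phosphate dehydrogenase ASPWEDRAFT_24495, which feeds glycerol 3-phosphate into respiration, had 290.9, 270.7 and 303.1 RPKM under NaCl and 282.0, 355.8 and 228.6 RPKM in untreated cultures, with overlapping groups (-0.05).

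The strongest rises of any list were in the orthologue group of AN9168, a glycerol proton symporter gene of *A. nidulans*. Of its 12 members 10 were tested and 8 were called higher (80%, against 19.5% of all genes), with a median log2 fold change of 3.61 over the 10. All are listed as orthologues of that gene, and whether each member transports glycerol was not tested. ASPWEDRAFT_534313 was the most abundant, with 2626, 2626 and 3244 RPKM under NaCl, against 79.9, 102.7 and 61.9 RPKM in untreated cultures. Its ratio of means was 34.8 and its log2 fold change 5.07 ± 0.36 (adjusted p = 2.33e-09). ASPWEDRAFT_35932 had 61.9, 382.4 and 261.1 RPKM under NaCl, against 0.119, 0.149 and 0 RPKM in untreated cultures, which held 15 reads of it in all. Its log2 fold change of 11.23 ± 1.38 (adjusted p = 1.78e-06) was the largest of any gene tested, and rests on those few reads.

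ASPWEDRAFT_112163 varied widely among libraries of a group, with 744.7, 170.1 and 340.9 RPKM under NaCl, against 15.7, 35.9 and 4.23 RPKM in untreated cultures (4.43 ± 0.88, adjusted p = 0.000335). ASPWEDRAFT_174802 varied little, with 9.06, 11.9 and 10.4 RPKM under NaCl, against 0.493, 0.405 and 0.464 RPKM in untreated cultures (4.47 ± 0.45, adjusted p = 1.5e-07). The remaining 4 AN9168 orthologues that were called stayed at low levels in both groups. Each of them lost its call under 1 of the 15 alternatives, limma on log2(RPKM + 1). ASPWEDRAFT_134254 had 1.02, 2.03 and 1.13 RPKM under NaCl, against 0.182, 0.212 and 0.191 RPKM in untreated cultures (2.79). ASPWEDRAFT_173452 had 0.426, 1.05 and 0.808 RPKM under NaCl, against 0.228, 0.266 and 0.179 RPKM in untreated cultures (1.72). ASPWEDRAFT_43563 had 0.629, 0.608 and 0.711 RPKM under NaCl, against 0.202, 0.144 and 0.267 RPKM in untreated cultures (1.61).

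ASPWEDRAFT_110586 had 29 reads in the 3 NaCl libraries and 1 read in the 3 untreated libraries, a ratio of 35.1 after scaling by library totals (95% exact interval 5.81 to 1432, for counting error only). Among the members of the group that were tested and not called, ASPWEDRAFT_172143 had 16.2, 27.1 and 18.5 RPKM under NaCl and 23.7, 30.1 and 18 RPKM in untreated cultures (log2 fold change -0.26). ASPWEDRAFT_182739 was at 0.181, 0.311 and 0.157 RPKM under NaCl and 0.355, 0.184 and 0.395 RPKM in untreated cultures (-0.53). Both had groups that overlap. The 3 tested orthologues of AN2864, a transporter of glycerol 3-phosphate and glycerophosphodiesters, were not called (-0.62 to 0.33).

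Of the 4 trehalose genes tested, 2 were called lower (15.4% of all genes were) and 0 higher (19.5% of all genes were). Of the *orlA*/*tpsA* orthologues, which the study counts among trehalose metabolism genes, 2 of 3 tested fell. ASPWEDRAFT_173702 had 114.7, 58.7 and 70.1 RPKM under NaCl, against 189.1, 156.3 and 271.2 RPKM in untreated cultures (-1.39 ± 0.31, adjusted p = 0.000901). ASPWEDRAFT_99274 had 293.4, 168.6 and 169.3 RPKM under NaCl, against 526.6, 517.4 and 536.1 RPKM in untreated cultures (-1.37 ± 0.36, adjusted p = 0.0037). ASPWEDRAFT_111742 had 47.7, 88.2 and 87 RPKM under NaCl and 94.4, 67.4 and 132.5 RPKM in untreated cultures, with overlapping groups (-0.44). The neutral trehalase *treB* (ASPWEDRAFT_33761), which splits trehalose, had 169.2, 145.7 and 146.1 RPKM under NaCl and 77.3, 88.8 and 73.4 RPKM in untreated cultures. Its log2 fold change of 0.90 ± 0.15 was within 2-fold although its adjusted p was 6.01e-05.

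Mannitol genes were not called. Mannitol 2-dehydrogenase (ASPWEDRAFT_105168) had 457.3, 240.4 and 339.6 RPKM under NaCl and 209.3, 191.3 and 206.9 RPKM in untreated cultures (0.72, adjusted p = 0.0611). Mannitol-1-phosphate 5-dehydrogenase (ASPWEDRAFT_117545) had 414.9, 713.9 and 631.3 RPKM under NaCl and 655.7, 487.6 and 897.9 RPKM in untreated cultures (-0.25, adjusted p = 0.607).

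Of the 3 orthologues of *pmaA*, the plasma membrane proton ATPase that drives such symport, a minor one rose. ASPWEDRAFT_114988 had 4.49, 8.59 and 9.22 RPKM under NaCl, against 1.17, 1.13 and 1.04 RPKM in untreated cultures (2.69 ± 0.30, adjusted p = 4.65e-07). The main one, ASPWEDRAFT_173501, had 672.8, 751.1 and 737.3 RPKM under NaCl and 470.0, 752.7 and 489.7 RPKM in untreated cultures (0.29). ASPWEDRAFT_66599 stayed below 0.3 RPKM in every library (0.14).

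Oxidative stress genes were mixed. Of 44 members tested in 6 lists, 9 were called higher (20.5%, against 19.5% of all genes) and 2 lower (4.55%, against 15.4%), and the median log2 fold change was 0.08. The share called higher was thus close to that of all genes. Among catalases, which break down hydrogen peroxide, 3 of 6 rose. The *catC* orthologue (ASPWEDRAFT_53830) had 261.9, 119.8 and 190.3 RPKM under NaCl, against 27.1, 22.9 and 47.8 RPKM in untreated cultures (2.50 ± 0.43, adjusted p = 7.06e-05). ASPWEDRAFT_116154 had 30.6, 11 and 27.1 RPKM under NaCl, against 1.19, 1.65 and 0.968 RPKM in untreated cultures (4.12 ± 0.55, adjusted p = 4.49e-06). ASPWEDRAFT_66442 was low throughout, with 0.241, 0.275 and 0.418 RPKM under NaCl, against 0.1, 0.0816 and 0.124 RPKM in untreated cultures (1.54, adjusted p = 0.0384), and its call was lost under 8 of the 15 alternatives.

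The peroxidases called were ASPWEDRAFT_235979, the cytochrome c peroxidase *ccp1*, and ASPWEDRAFT_33541. ASPWEDRAFT_235979 had 1336, 498.5 and 898.3 RPKM under NaCl and 244.1, 187.5 and 633.8 RPKM in untreated cultures, with overlapping groups (1.31, adjusted p = 0.0141). ASPWEDRAFT_33541 had 108.5, 101.6 and 111.7 RPKM under NaCl, against 46.4, 71.7 and 26 RPKM in untreated cultures (1.11, adjusted p = 0.0125). Every treated library of ASPWEDRAFT_33541 was above every untreated one. The call of ASPWEDRAFT_235979 was lost without NaCl replicate 1 (0.93) and without untreated replicates 1 (1.10) and 2 (1.01), and that of ASPWEDRAFT_33541 without untreated replicate 3 (0.81).

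In the thioredoxin system, which reduces oxidised protein thiols, a thioredoxin and the reductase rose. ASPWEDRAFT_139887 had 41.8, 30.6 and 34.3 RPKM under NaCl, against 12.2, 10.7 and 6.44 RPKM in untreated cultures (1.81 ± 0.38, adjusted p = 0.000492). The thioredoxin reductase *trxR* (ASPWEDRAFT_166503) had 3668, 1220 and 2639 RPKM under NaCl and 847.2, 861.7 and 1711 RPKM in untreated cultures, which overlap (1.09, adjusted p = 0.0274). The superoxide dismutase ASPWEDRAFT_506345 had 6.98, 5.49 and 6.92 RPKM under NaCl, against 3.09, 4.03 and 2.19 RPKM in untreated cultures (1.01, adjusted p = 0.0284). The call of ASPWEDRAFT_166503 was lost under 4 of the 15 alternatives, all of them with a library left out (0.71 to 1.05, without NaCl replicates 1 and 3 and untreated replicates 1 and 2). That of ASPWEDRAFT_506345 was lost under 5, 4 of them with a library left out (0.81 to 0.99, without NaCl replicates 1 and 3 and untreated replicates 1 and 3). The abundant dismutases, the *sodA* and *sodM* orthologues, were not called (-0.38 and 0.02).

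The glutathione list, with 12 members tested, and the peroxiredoxin list, with 10, held 1 member higher and 2 lower. Of all genes 19.5% were called higher and 15.4% lower. ASPWEDRAFT_53567, of a glutathione transferase group, fell most of all list members, with 7.98, 6.63 and 7.79 RPKM under NaCl, against 95.9, 72.6 and 120.5 RPKM in untreated cultures (-3.73 ± 0.34, adjusted p = 5.63e-08). The peroxiredoxin ASPWEDRAFT_36552 had 5.85, 4.65 and 6.07 RPKM under NaCl, against 9.23, 8.29 and 16.3 RPKM in untreated cultures (-1.07, adjusted p = 0.0107), and its call was lost under 7 of the 15 alternatives. ASPWEDRAFT_620702, of the glutathione peroxidase group of AN4905, had 9.73, 23.6 and 15 RPKM under NaCl, against 6.54, 8.53 and 4.98 RPKM in untreated cultures (1.23, adjusted p = 0.0374), and its call was lost under 5 of the 15 alternatives.

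Of the RT-qPCR genes, 3 of 12 tested were called higher (25%, against 19.5% of all genes) and 1 lower (8.33%, against 15.4%). The aldehyde dehydrogenase ASPWEDRAFT_117870 had 64.9, 89.6 and 86.8 RPKM under NaCl, against 20.2, 21.3 and 22.1 RPKM in untreated cultures (1.88 ± 0.27, adjusted p = 1.12e-05). Another aldehyde dehydrogenase, ASPWEDRAFT_35534, had 0.414, 0.727 and 0.589 RPKM under NaCl, against 0.0604, 0.115 and 0.145 RPKM in untreated cultures (2.41). ASPWEDRAFT_165285, a glycoside hydrolase of family 5, had 0.35, 0.451 and 0.243 RPKM under NaCl, against 0.0187, 0.0534 and 0.027 RPKM in untreated cultures (3.28). These last 2 genes rest on few reads, 4 untreated reads in all for the hydrolase, and both lost their call by limma. The chitin synthase ASPWEDRAFT_189665, which makes the cell wall polymer, had 88.8, 48.6 and 47.5 RPKM under NaCl, against 184.3, 195.4 and 232.2 RPKM in untreated cultures (-1.77 ± 0.34, adjusted p = 0.000238). Gamma actin had 1066, 917.5 and 920.6 RPKM under NaCl and 1400, 1630 and 1412 RPKM in untreated cultures, a log2 fold change of -0.66 (ASPWEDRAFT_168397, adjusted p = 0.00761). The elongation factor EF-3 (ASPWEDRAFT_167845) had 411.5, 182.5 and 202.3 RPKM under NaCl and 402.5, 368.1 and 470.5 RPKM in untreated cultures (-0.69, adjusted p = 0.141). Both of these genes are often used as references, and both were at lower mean levels under NaCl.

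Outside the lists, the genes named here for the size of their change carry no symbol in the tables used. ASPWEDRAFT_112139 had 448.0, 594.1 and 702.8 RPKM under NaCl, against 0.899, 2.83 and 0.633 RPKM in untreated cultures (log2 fold change 8.60 ± 0.86, adjusted p = 1.57e-07). ASPWEDRAFT_62138 had 7.14, 12.6 and 14.2 RPKM under NaCl, against 0, 0.0573 and 0.0579 RPKM in untreated cultures (8.15 ± 0.69, adjusted p = 2.25e-08). Both were near silence in untreated cultures, but not under sorbitol. ASPWEDRAFT_112139 had 194.9, 114.4 and 279.8 RPKM and ASPWEDRAFT_62138 had 2.58, 1.6 and 7.9 RPKM in the sorbitol libraries. ASPWEDRAFT_176781 had 3.9, 4.36 and 8.74 RPKM under NaCl, against 364.3, 439.1 and 467.7 RPKM in untreated cultures (-6.27 ± 1.51, adjusted p = 0.00175). ASPWEDRAFT_25743 had 1.97, 1.83 and 2.4 RPKM under NaCl, against 38.3, 398.5 and 10.1 RPKM in untreated cultures (-6.23 ± 0.91, adjusted p = 1.3e-05), so that its untreated level differed widely between cultures. Without untreated replicate 2 its log2 fold change was -3.59.

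The NaCl and sorbitol cultures of CBS141173 were compared directly. NaCl gave 1001 genes higher (9.02% of genes tested) and 980 lower (8.83%) than sorbitol. The sorbitol libraries correlated at 0.932 to 0.958, less than the NaCl libraries did, and with only these 6 libraries in the fit the counts were 472 and 371. On log2(RPKM + 1) limma called 878 higher and 508 lower. Of all list members tested, 8 were higher and 7 lower under NaCl than under sorbitol. Of the 31 list members that rose under NaCl, 7 were higher and 1 lower than under sorbitol. Choosing members by their rise in the same NaCl libraries favours the higher side, so this split is no result about them. The AN9168 orthologue ASPWEDRAFT_534313 had 2626, 2626 and 3244 RPKM under NaCl, against 963.6, 1157 and 1604 RPKM under sorbitol (1.30 ± 0.31, adjusted p = 0.00449). ASPWEDRAFT_35932 had 61.9, 382.4 and 261.1 RPKM under NaCl, against 33.8, 8.84 and 8.5 RPKM under sorbitol (3.87 ± 0.94, adjusted p = 0.00533). These 2 AN9168 orthologues did not overlap between the osmolytes. Of the 10 tested members of that group, 4 were called higher under NaCl than under sorbitol and 1 was called lower. The lower one was ASPWEDRAFT_182739, with log2 fold changes of -2.72 to -1.6 when a library was left out.

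The gene *gfdA* did not differ by the test, with 1160, 782.3 and 1056 RPKM under NaCl and 482.0, 1452 and 805.9 RPKM under sorbitol (ASPWEDRAFT_104967, 0.24 ± 0.28, adjusted p = 0.544). The *hogA* orthologue ASPWEDRAFT_41261 was higher under NaCl, with 117.7, 138.6 and 117.9 RPKM, against 55, 34.1 and 62.5 RPKM under sorbitol (1.41 ± 0.35, adjusted p = 0.00618). The *srrA* orthologue ASPWEDRAFT_202686 was lower under NaCl, with 14.2, 4.5 and 4.57 RPKM, against 17, 42.4 and 29.2 RPKM under sorbitol (-1.83 ± 0.41, adjusted p = 0.0032). The catalase ASPWEDRAFT_116154 was lower too, with 30.6, 11 and 27.1 RPKM under NaCl, against 34.6, 93.1 and 120.2 RPKM under sorbitol (-1.74 ± 0.49, adjusted p = 0.0123). A glutathione transferase of the group of ASPWEDRAFT_53567, ASPWEDRAFT_22967, had 15.1, 20.6 and 14.8 RPKM under NaCl, against 43.4, 86.8 and 136.4 RPKM under sorbitol (-2.28 ± 0.36, adjusted p = 0.000263).

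Outside the lists, ASPWEDRAFT_41417 had 40.9, 54.1 and 56 RPKM under NaCl, against 1.86, 1.29 and 11.3 RPKM under sorbitol (3.50 ± 0.58, adjusted p = 0.000396). The transfer RNA gene ASPWEDRAFT_t109 had 12.7, 9.19 and 8.27 RPKM under NaCl, against 0.682, 0.648 and 0.625 RPKM under sorbitol (3.85), from 46 reads in the 3 NaCl libraries. The largest fall was in ASPWEDRAFT_531408, with 2.84, 4.73 and 6.76 RPKM under NaCl, against 10.5, 2141 and 98 RPKM under sorbitol (-7.19 ± 1.95, adjusted p = 0.0103). ASPWEDRAFT_168039 had 1.61, 0.575 and 4.04 RPKM under NaCl, against 5.22, 821.1 and 14.2 RPKM under sorbitol (-7.01 ± 1.87, adjusted p = 0.00911). In both, sorbitol replicate 2 held most of the signal. Without it the log2 fold changes were -3.35 for ASPWEDRAFT_531408 and -2.14 for ASPWEDRAFT_168039, and both calls were lost, as they were by limma and with only these 6 libraries in the fit.

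Against the same untreated libraries, the log2 fold change of *gfdA* (ASPWEDRAFT_104967) was 3.33 under NaCl, 0.34 under NaCl + sorbitol and 3.09 under sorbitol. For ASPWEDRAFT_534313 the values were 5.07, -0.32 and 3.77 in that order, and for *atfA* (ASPWEDRAFT_37015) they were 3.41, 0.28 and 2.65. The *ypdA* orthologue (ASPWEDRAFT_99233) had 3.20, 1.38 and 2.72. These comparisons share their untreated libraries. In RPKM, *gfdA* had 138.2, 92.2 and 131.5 in the 3 NaCl + sorbitol libraries, close to the 88.9 to 105.6 RPKM of untreated cultures, and ASPWEDRAFT_534313 had 34.2, 63.8 and 98.1 RPKM. Of the list members tested, 31 were called higher and 6 lower under NaCl, 18 higher and 10 lower under NaCl + sorbitol (10.1% and 8.61% of all genes), and 31 higher and 4 lower under sorbitol (16.7% and 9.07% of all genes). Not every glycerol gene was back at its untreated level under NaCl + sorbitol. Of 13 glycerol transport genes tested, 8 were higher under NaCl, 5 under NaCl + sorbitol and 8 under sorbitol. Of 15 glycerol synthesis genes the counts were 8, 5 and 8 in that order.

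**Figure D4:**
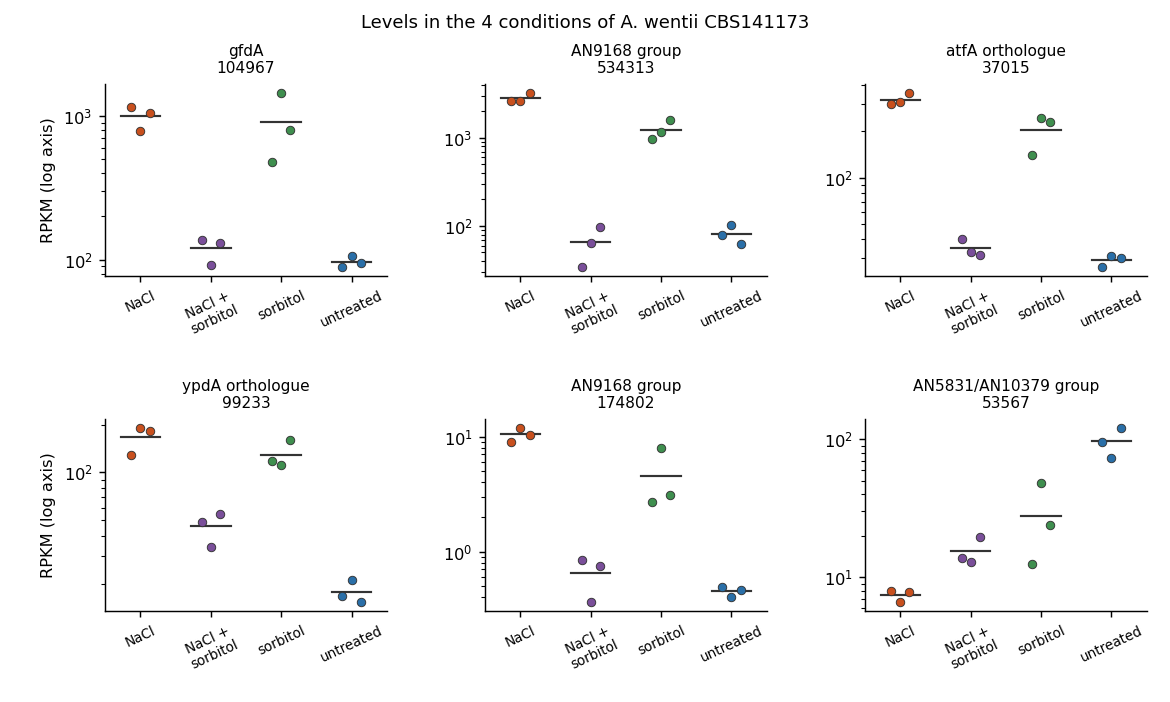
Level in RPKM (log axis) of 6 genes in each library of CBS141173 under NaCl, NaCl + sorbitol, sorbitol and no treatment. Points are libraries and lines are means (n = 3), and *gfdA*, the AN9168 orthologues ASPWEDRAFT_534313 and ASPWEDRAFT_174802 and *atfA* lie near their untreated level under NaCl + sorbitol.

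The same NaCl treatment of 'c gfdB used none of these 6 libraries. It gave 2148 genes higher (19.4%) and 928 lower (8.36%). Of the genes that rose in CBS141173, 1332 rose in 'c gfdB too, which is 61.4% of the CBS141173 list and 62% of the 'c gfdB list. Of the genes that fell, 531 fell in both, 31.1% of the CBS141173 list and 57.2% of the 'c gfdB list. The genes that fell in CBS141173 had a median log2 fold change of -0.71 in 'c gfdB and -1.48 in CBS141173, while the genes that rose had 1.46 in 'c gfdB and 1.89 in CBS141173. These medians are over genes chosen for their change in CBS141173. The 'c gfdB NaCl libraries correlated at 0.894 to 0.975.

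The interaction of strain and NaCl was called in 1154 genes (10.4%), with the response of 'c gfdB above that of CBS141173 in 802 (7.23%) and below it in 352 (3.17%). These counts depended on single libraries: the 802 became 489 without CBS141173 untreated replicate 3, 408 without 'c gfdB untreated replicate 1 and 526 without 'c gfdB NaCl replicate 1. The 352 became 217 and 152 without CBS141173 untreated replicates 1 and 3, 219 without CBS141173 NaCl replicate 3, 1.78% of genes tested without CBS141173 NaCl replicate 2, and 212 and 219 without 'c gfdB untreated replicates 1 and 2. With only the 4 groups of the contrast in the fit, 457 and 262 genes were called. Of the 31 list members that rose in CBS141173, 22 rose in 'c gfdB, 30 had a positive fold change there, and 0 had a called interaction. Among all genes that rose in CBS141173, 61.4% rose in 'c gfdB and 93% had a positive fold change there, against 53.3% of all genes tested. The sign in 'c gfdB thus does not set these members apart from other genes that rose. Of the 6 list members that fell, 1 fell in 'c gfdB and 4 had a called interaction. Among all genes that rose in CBS141173, 11.2% had a called interaction, and among all that fell 27% did, with 457 of those 462 opposite in sign to the change. Choosing genes by their change in CBS141173 favours that opposite sign, so its direction is no result about the members.

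**Figure D5:**
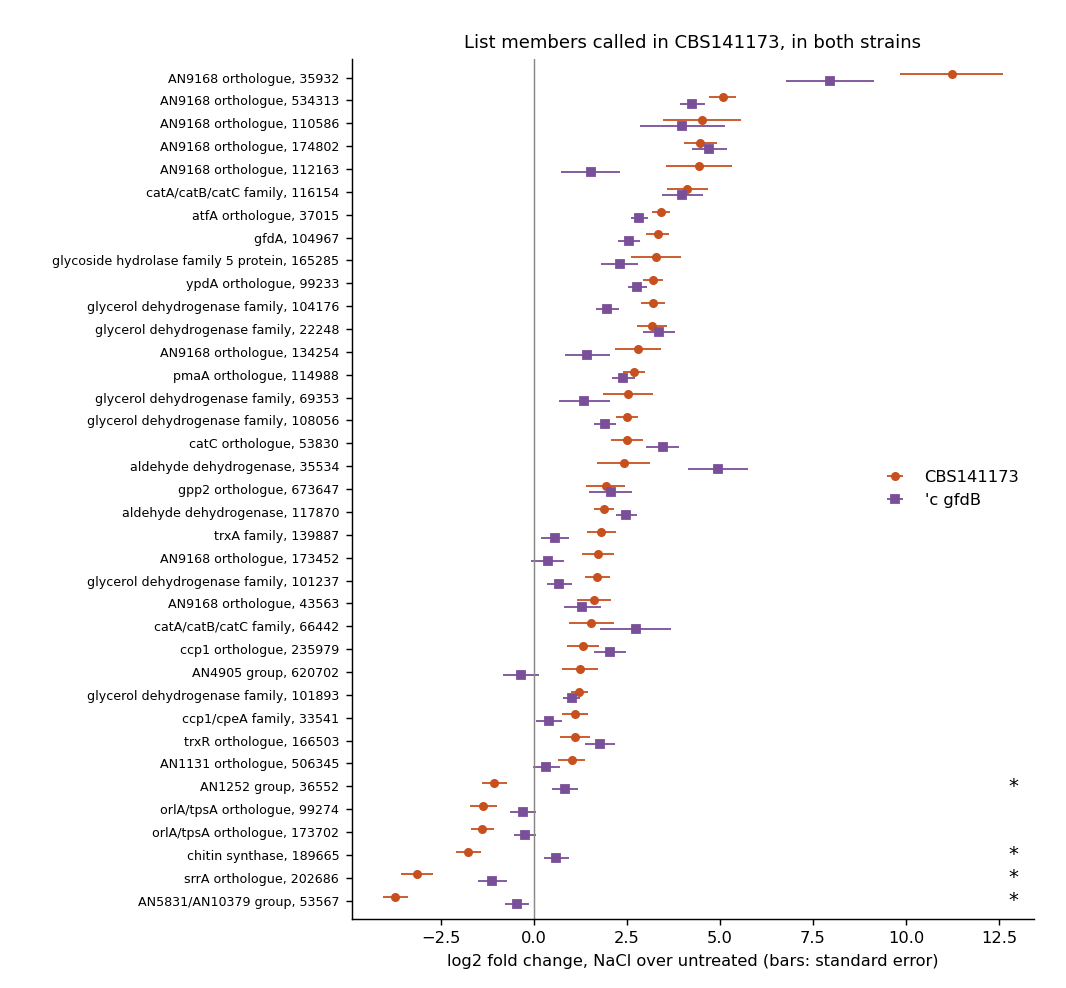
Log2 fold change, NaCl over untreated, of the 37 list members called in CBS141173 (orange circles), beside the value of the same gene in 'c gfdB (purple squares), with bars for the standard error. Asterisks mark the 4 genes with an interaction at adjusted p under 0.05, all of them genes that fell in CBS141173.

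The glutathione transferase gene ASPWEDRAFT_53567 had the lowest adjusted p for the interaction among list members. It had 11.5, 7.17 and 7.91 RPKM under NaCl and 10.1, 12.4 and 12.8 RPKM untreated in 'c gfdB, and 7.98, 6.63 and 7.79 RPKM under NaCl against 95.9, 72.6 and 120.5 RPKM untreated in CBS141173 (interaction 3.28 ± 0.45, adjusted p = 0.000256). The levels under NaCl thus lay close together, and the untreated levels lay apart. The chitin synthase ASPWEDRAFT_189665 had 243.8, 73.5 and 86.3 RPKM under NaCl and 57.5, 101.8 and 91.9 RPKM untreated in 'c gfdB (interaction 2.37 ± 0.47, adjusted p = 0.0036). For *srrA* (ASPWEDRAFT_202686) 'c gfdB had 26.9, 7.87 and 12.2 RPKM under NaCl and 26.1, 34.4 and 36.1 RPKM untreated, a log2 fold change of -1.12, against -3.15 in CBS141173 (interaction 2.03 ± 0.57, adjusted p = 0.0245). The interaction of *srrA* missed the threshold without 'c gfdB NaCl replicate 1 (1.55), 'c gfdB untreated replicate 1 (1.84), CBS141173 untreated replicate 3 (1.80), and CBS141173 NaCl replicates 2 (1.76) and 3 (1.76), with adjusted p of 0.069 to 0.0863, and with only the 4 groups of the contrast in the fit (2.03, adjusted p = 0.0808).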

How the data were processed

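Per the labels and the methods, TruSeq libraries of 3 biological replicates per group were sequenced as single 75-base reads. The authors aligned reads with HISAT2 2.1.0 and deposited raw read counts per gene, gene lengths, and RPKM values made from those counts in edgeR. The submitters' processing notes name DESeq2 1.24.0. Strand and multimapping settings are not given in the sources used here. Reads shared by paralogues or by overlapping genes may therefore be miscounted. Every deposited RPKM equalled count over length and library total to within rounding, and 0 value columns were left unmapped.

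Counts of the 24 *A. wentii* libraries (8 groups) were fitted in edgeR 4.0.16 (filterByExpr, TMM, quasi-likelihood F-test, Benjamini-Hochberg over 11094 genes), in R 4.3.3. A call needed adjusted p under 0.05 and more than 2-fold. Standard errors are of log2 fold changes. Alternatives used DESeq2 1.42.0, limma 3.58.1 on log2(RPKM + 1), other size factors, no filter, fewer groups, a replicate block, and each replicate left out. The procedure was tested on simulated counts. P-values and standard errors of the main fit rest on a spread between cultures estimated over all 8 groups, not over the compared libraries alone.

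Gene lists came from the study's orthologue tables and RT-qPCR genes. Members and lists were chosen with earlier results of these data known. All members were measured, and each called member is named with its values, as are core members of each pathway whatever their value. Outside the lists, the 2 largest rises and the 2 largest falls among called genes without overlap and with a mean of at least 10 RPKM in the higher group are named, and likewise against sorbitol and for the interaction. Other uncalled members were named after their values were seen. No genome, sequence or gene position of *A. wentii* was used here.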

Additional observations from a re-analysis of the deposited data

Results flagged for a closer look

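In 12 named genes the NaCl response of 'c gfdB differed from that of CBS141173 by the interaction test of edgeR (adjusted p under 0.05). Those outside the lists were named for the size of a change, some of them for the interaction itself. The 12 therefore do not measure how often the strains differed. Of all genes tested, 10.4% had a called interaction. The lists, with 118 genes of which all but 11 were tested, hold 5 of the 12. Among these, *srrA* (ASPWEDRAFT_202686, interaction 2.03), the chitin synthase ASPWEDRAFT_189665 (2.37), the glutathione transferase ASPWEDRAFT_53567 (3.28) and the peroxiredoxin ASPWEDRAFT_36552 (1.89) fell in CBS141173. For ASPWEDRAFT_36552, 'c gfdB had 6.65, 2.72 and 3.42 RPKM under NaCl and 2.63, 1.56 and 2.73 RPKM untreated, and the interaction missed the threshold without CBS141173 untreated replicate 3 (1.54, adjusted p = 0.0592). ASPWEDRAFT_169781 had 1.35, 1.43 and 1.28 RPKM under NaCl, against 0.123, 0 and 0.215 RPKM untreated, in 'c gfdB, and 0.988, 1.36 and 1.6 RPKM under NaCl and 0.493, 2.06 and 0.203 RPKM untreated in CBS141173 (interaction 3.00, adjusted p = 0.0356). That interaction missed the threshold under 10 alternatives. These were limma (0.70, adjusted p = 0.169), only the 4 groups in the fit (adjusted p = 0.136), the replicate block (2.90, adjusted p = 0.0513), and 7 libraries left out in turn, where it was 1.67 without CBS141173 untreated replicate 2 and 2.43 to 3.15 without the others.

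ASPWEDRAFT_62138 rose less in 'c gfdB, with 4.62, 7.11 and 4.88 RPKM under NaCl, against 0.422, 0.642 and 0.204 RPKM untreated (interaction -4.47, adjusted p = 0.0034, and -1.30 with adjusted p = 0.0571 by limma). ASPWEDRAFT_186664 had 15.1, 13.8 and 15.9 RPKM under NaCl, against 4.86, 2.71 and 2.27 RPKM untreated, in 'c gfdB, and 14.6, 16.4 and 15.4 RPKM under NaCl, against 0.241, 0.343 and 0.283 RPKM untreated, in CBS141173 (interaction -3.53, adjusted p = 0.00278). In both genes the strains lay closer under NaCl than untreated. ASPWEDRAFT_25743 had 2.25, 3.14 and 2.9 RPKM under NaCl, against 0.885, 0.95 and 1.97 RPKM untreated, in 'c gfdB (interaction 7.34, adjusted p = 0.000991, and 4.70 without CBS141173 untreated replicate 2).

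In 4 further genes 'c gfdB NaCl replicate 1 stood far above its 2 companions. ASPWEDRAFT_176781 had 361.2, 0.936 and 3.78 RPKM in the 'c gfdB NaCl libraries (interaction 10.32, and 4.96 with adjusted p = 0.0638 without that library). ASPWEDRAFT_531408 had 3449, 5.06 and 13.9 RPKM there (11.01, and 4.38 with adjusted p = 0.123 without it). ASPWEDRAFT_168039 had 95.2, 0 and 0.173 RPKM (11.65, and 3.77 with adjusted p = 0.814 without it), and ASPWEDRAFT_44804 had 146.2, 0.184 and 0.156 RPKM (11.06, and 3.20 with adjusted p = 0.518 without it). By limma the interactions of ASPWEDRAFT_531408 (5.77), ASPWEDRAFT_168039 (6.03) and ASPWEDRAFT_44804 (5.54) also missed the threshold.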

How the results depend on the processing

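Between NaCl and untreated CBS141173 the counts stayed within 1.5 times of 2168 and 1708 under every alternative run, at 1687 to 2448 higher and 1196 to 1694 lower over the settings that kept all 6 libraries, and at 1929 to 2210 higher and 1497 to 1876 lower with a replicate left out. Of 45 named genes called, 17 lost the call under at least 1 of 15 alternatives and 0 changed sign. Against sorbitol, fitting only the 6 libraries gave 472 higher and 371 lower genes, and limma gave 508 lower. Leaving out a replicate gave 697 to 1379 higher and 688 to 1290 lower. In 'c gfdB limma called 1414 higher, and leaving out a replicate gave 1907 to 2222 higher and 878 to 1209 lower. For the interaction, fitting only its 4 groups gave 457 genes above, and leaving out a replicate gave 408 to 1073 above and 152 to 487 below. Without 'c gfdB NaCl replicate 1 the NaCl change of 'c gfdB turned negative for ASPWEDRAFT_176781 (-1.31), ASPWEDRAFT_531408 (-0.04), ASPWEDRAFT_168039 (-1.14) and ASPWEDRAFT_44804 (-0.16), while without 'c gfdB NaCl replicate 2 it was 4.63, 7.18, 7.32 and 8.28 in the same order. The cause of these shifts was not tested. With library totals in place of TMM factors the median log2 fold change of all genes against sorbitol was -0.12, against -0.02 with TMM.

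Deviations of same-numbered NaCl and untreated libraries correlated at -0.00, 0.06 and 0.01. Same-numbered NaCl and sorbitol libraries gave -0.33, -0.34 and 0.01, and differently numbered ones -0.08 to 0.38. With 3 libraries per group these values cannot decide whether replicate numbers pair the cultures. With the replicate block 2133 genes were higher and 1694 lower. Runs of neighbouring genes were not examined, since no gene positions were used. Members with few reads limit the depth: 11 of 118 were not tested.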

Other observations

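Of the *A. wentii* genes, 399 had no read in the 3 untreated libraries and 251 had none in the 3 NaCl libraries. Of the 399, 9 had enough reads over the 24 libraries to be tested, and 6 of the 399 had at least 10 reads in each NaCl library.

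Among list members too low to be tested, ASPWEDRAFT_739303 of the glycerol transport list had 37 reads under NaCl and 1 read untreated. The ratio was 44.7 after scaling by library totals (95% exact interval 7.55 to 1814, for counting error only). The thioredoxin family gene ASPWEDRAFT_293907 had 3, 20 and 24 reads in the NaCl libraries and 0 reads in the untreated ones, which is at least 18.9-fold higher with a floor of 3 reads over the group.

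A catalase-peroxidase gene varied widely between cultures of a group. The *cpeA* orthologue (ASPWEDRAFT_54185) had 236.5, 10.1 and 52.9 RPKM under NaCl and 38.9, 17.8 and 738.0 RPKM untreated, and was not called (-1.46 ± 1.14, adjusted p = 0.297).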
